A study of Mus musculus with 10 samples.

Results

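Complement components and acute phase proteins are plasma proteins made mostly by hepatocytes, and 39 of their genes were followed here in mouse liver by RNA-seq. The genes were chosen by symbol, 22 of the complement system and 17 of the acute phase response, out of 23420 genes in the count files. Livers came from male C57BL/6 mice aged 4 months. The fed group held 5 mice on standard chow, and the starved group held 5 mice that had water but no food for 48 hours. No gene was altered and no drug was given in either group. The series asks how the metabolic state of liver bears on gene expression through a histone mark derived from the ketone body β-hydroxybutyrate.

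Complement is a cascade of serum proteases. C1 and the mannose-binding lectins sense targets, and the proteases of C1 and those bound to the lectins cleave C4 and C2. The alternative pathway amplifies the cleavage of C3, and C5 to C9 assemble the membrane attack complex, which opens a pore in the target membrane. Acute phase proteins are secreted by hepatocytes when cytokines such as interleukin-6 and interleukin-1 act through STAT3, C/EBP and NF-κB transcription factors, and glucocorticoids strengthen many of these responses. In inflammation the serum amyloid A proteins, orosomucoids, haptoglobin and lipocalin 2 are typical genes that increase in mouse liver.

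Each library is 1 mouse, and the number of reads assigned to genes ranged from 18197194 to 29941358. Levels are given as CPM, counts relative to a fixed total of gene reads, after TMM scaling (trimmed mean of M values) of the libraries. No pair of libraries within a group matched within sampling noise, since the lowest chi-square per degree of freedom was 21.4 among fed and 11.2 among starved pairs. On the first principal component, starved libraries 2 and 4 scored 93.9 and 67.0, against 18.6 to 19.4 for the other starved and −45.2 to −41.4 for fed libraries. Results are therefore also given without these 2 libraries where they change. Liver identity was clear from hepatocyte genes, since Alb alone took 7.36% to 10.9% of gene reads in every library. In whole tissue, fewer cells of a type and less RNA per cell cannot be told apart.

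Of the 39 genes, 20 fell, 6 rose and 13 were not called in starved liver, with calls made at an adjusted p under 0.05 (edgeR's quasi-likelihood test, Benjamini-Hochberg adjustment over all tested genes). Over all 12796 tested genes, 20.0% were lower and 18.6% were higher, against 51.3% and 15.4% of the 39 genes. All 39 genes passed the filter on low counts. Their median log2 fold change was −0.54, and that of all tested genes was 0.00. Among the 39 genes, 9 were called with at least a 2-fold fall and 3 with at least a 2-fold rise, where 7.79% and 5.44% of all tested genes were. Of these, Mbl2, C6, C8b, Saa1 and Serpina3n changed less than 2-fold without starved libraries 2 and 4. Their log2 fold changes were then −0.97, −0.96, −0.82, −0.89 and 0.77. Fed and starved libraries did not overlap in 18 of the 39 genes (46.2%), against 29.9% of all tested genes. Among the 22 complement genes 13 fell and 0 rose, while among the 17 acute phase genes 7 fell and 6 rose. Without starved libraries 2 and 4, 18 of the 39 genes fell and 6 rose, where 20.7% of all tested genes were lower and 20.2% higher. Scaling by library totals alone moved the median of all genes by −0.15 on the log2 scale, and 24 of the 39 genes were then lower and 6 higher, against 27.3% and 11.6% of all tested genes. The 39 genes together took 2.71% ± 0.24 (SD, n = 5) of gene reads in fed and 2.26% ± 0.19 in starved liver.

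**Figure D1:**
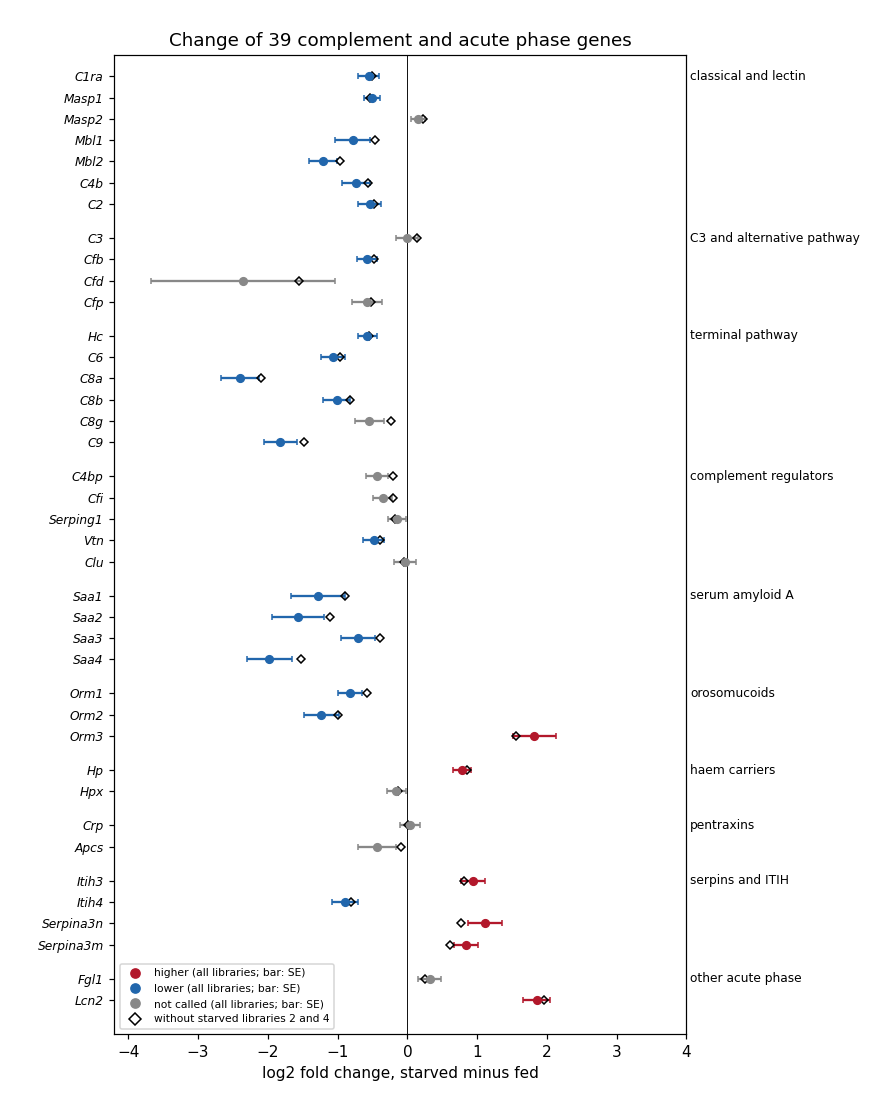
Log2 fold change (starved minus fed, x axis) of each of the 39 genes, grouped by role, with bars of 1 SE and open diamonds for the value without starved libraries 2 and 4. C8a has the strongest called fall at −2.40 and Lcn2 the strongest rise at 1.85, while Cfd, at −2.35 with an SE of 1.32, was not called.

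The genes that start the classical and lectin pathways were mostly lower in starved liver. Of these, 6 of 7 fell (85.7%, against 20.0% of all tested genes) and 0 rose. Mbl2, a mannose-binding lectin that recognises sugars on microbes, had the largest change in this group. Its levels were 643, 720, 736, 679 and 763 CPM in fed libraries 1 to 5 and 346, 285, 294, 175 and 434 CPM in starved libraries 1 to 5. Every starved library lay below every fed library, and Mbl2 fell 2.31-fold (log2 fold change −1.21 ± 0.20 SE, adjusted p = 0.000856, edgeR). Mbl1, the other mannose-binding lectin, stood at 213, 210, 237, 195 and 207 CPM in fed and at 151, 49.2, 153, 111 and 150 CPM in starved libraries. Starved library 2 was far below the others, but the groups did not overlap, and Mbl1 fell by 0.79 ± 0.25 on the log2 scale (adjusted p = 0.0272, edgeR). Without starved libraries 2 and 4 the log2 fold change of Mbl1 was −0.47 (adjusted p = 0.00186, edgeR), and without fed library 3 or starved library 4 alone it was not called.

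C4b, which is cleaved to the surface-bound opsonin C4b, measured 357, 642, 486, 534 and 630 CPM in fed and 287, 259, 297, 269 and 474 CPM in starved libraries. The groups overlapped, because starved library 5 lay above fed library 1, and C4b fell by 0.74 ± 0.20 on the log2 scale (adjusted p = 0.0134, edgeR). The smaller falls were those of C1ra, a protease of the C1 complex (−0.55 ± 0.15), C2, the protease partner of C4 (−0.54 ± 0.16), and Masp1, a protease bound to the lectins (−0.51 ± 0.12). C2 was no longer called when fed library 2, 4 or 5 or starved library 4 was left out, and 58.0% of its 50-base stretches, and 81.4% of those of Cfb, also occur in Gm20547, a read-through gene that is no row of the count files. Masp2, the lectin-bound protease that cleaves C4 and C2, was not called. Its mean level was 124 ± 9.87 CPM in the fed group against 138 ± 12.8 CPM after starvation (log2 fold change 0.15, and −0.00 with library totals alone). These rows differ in how uniquely reads can be assigned. Of the 50-base stretches of the longest coding transcript, 50.8% in C1ra also occur in other genes, mostly C1rb, and 35.2% in C4b also occur in C4a. Exons of Masp2 share 54.9% of their bases with Tardbp on the opposite strand, and the strand setting of the counting is not given in the sources used here.

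C3, the central component on which all 3 pathways converge, was not called. It stood at 3223, 4327, 3538, 3731 and 4417 CPM in fed and at 3665, 3321, 3575, 3333 and 5263 CPM in starved libraries. Apart from starved library 5, which was the highest of all, the starved values lay within the fed range (log2 fold change −0.01 ± 0.16, adjusted p = 0.981, edgeR), and the sign of this value turned under several alternatives. Cfb, the protease of the alternative pathway C3 convertase, fell from 1373 ± 183 to 921 ± 130 CPM (log2 fold change −0.58 ± 0.14). Cfp, properdin, which stabilises that convertase and is made largely by myeloid cells, was not called (37.1 ± 10.5 and 24.9 ± 6.32 CPM, adjusted p = 0.0514, edgeR) under the main settings. It was called lower without starved libraries 2 and 4 (−0.52, adjusted p = 0.0495, edgeR), with library totals alone, with the filter of at least 1 CPM in at least 5 libraries, and without fed library 2 or starved library 1 or 2 alone.

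Cfd, the adipsin protease that activates factor B and is made mainly by adipocytes, was the most uneven of the 39 genes. It had 447, 131, 41, 2 and 9 reads in fed and 99, 0, 2, 0 and 1 reads in starved libraries. The high libraries, fed 1 and 2 and starved 1, were not those of 1 group, and Cfd was not called (log2 fold change −2.35 ± 1.32 SE, adjusted p = 0.175, edgeR), except with a replicate block or without starved library 1. Adipoq, the adipocyte hormone adiponectin, had 86, 10, 3, 1 and 4 reads in fed and 29, 1, 0, 1 and 1 reads in starved libraries. Its highest libraries were fed 1, starved 1 and fed 2. Retn, another adipocyte hormone, was highest in the same fed libraries, with 33 and 9 reads, and had at most 2 reads in each of the others. Of the 7 adipocyte genes in the marker list, Lep was at or near 0 in every library, with at most 3 reads, and 1 of the 2 tested genes, Cidec, which hepatocytes also express, rose. The summed level of the list was 7.40 to 25.2 CPM in fed and 14.7 to 57.0 CPM in starved libraries. Most of this sum was Cidec and Fabp4. Cidec was at 1.89 to 3.86 CPM in fed and 7.01 to 46.6 CPM in starved libraries, and Fabp4 at 5.13 to 16.3 and 7.65 to 12.7 CPM. The higher starved sums therefore came mainly from Cidec, and the part of adipose RNA in the values of Cfd was not tested.

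Genes of the terminal pathway, which build the membrane attack complex, were mostly lower, with a median log2 fold change of −1.04. Of these, 5 of 6 fell (83.3%, against 20.0% of all tested genes) and 0 rose. C8a, the α chain of C8, which inserts into the membrane, stood at 194, 302, 365, 217 and 255 CPM in fed and at 43.3, 39.5, 78.5, 29.7 and 62.1 CPM in starved libraries. The highest starved library had less than any fed library, and C8a fell 5.26-fold (log2 fold change −2.40 ± 0.27 SE, adjusted p = 9.87e-05, edgeR). C9, which polymerises into the pore, was the most even gene among fed mice, at 230, 209, 223, 222 and 234 CPM, and stood at 58.2, 45.0, 83.3, 34.4 and 95.9 CPM in starved libraries. It fell 3.53-fold (log2 fold change −1.82 ± 0.24 SE, adjusted p = 0.000275, edgeR), and starved libraries differed among themselves more than fed libraries did. The log2 fold change of C9 was −1.48 without starved libraries 2 and 4.

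C6, which binds C5b at the start of the assembly, had 21.5, 25.1, 36.4, 30.1 and 25.4 CPM in fed and 13.9, 15.2, 13.3, 9.00 and 15.0 CPM in starved libraries. Starved library 4 was far below the others, the groups did not overlap, and C6 fell by 1.06 ± 0.17 on the log2 scale (−1.06, adjusted p = 0.000854, edgeR). C8b, the β chain of C8, measured 179, 255, 267, 183 and 180 CPM in fed and 103, 100, 131, 68.7 and 124 CPM in starved libraries. No starved library reached a fed level, and C8b fell by 1.02 ± 0.19 on the log2 scale (−1.02, adjusted p = 0.00172, edgeR). Hc, the mouse gene of C5, stood at 430, 633, 501, 532 and 601 CPM in fed and at 310, 357, 352, 364 and 430 CPM in starved libraries, where fed library 1 and starved library 5 nearly met. Hc fell by 0.57 ± 0.13 on the log2 scale (adjusted p = 0.00579, edgeR).

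C8g, the γ chain of C8 and a lipocalin, was the terminal gene that was not called (502 ± 64.7 and 344 ± 111 CPM, log2 fold change −0.54, adjusted p = 0.0575, edgeR). Starved libraries 2 and 4 were the low ones, at 232 and 222 CPM, and without them its log2 fold change was −0.23. It was called with library totals alone, with DESeq2's Wald test, with limma-voom, with a replicate block and without starved library 1 or 3. The 3 chains of C8 therefore did not keep their proportions. Per kilobase of exon, C8a was at 0.225 ± 0.081 of the level of C8g in fed and at 0.061 ± 0.013 in starved liver, and the groups did not overlap. The same ratio of C8b to C8g was 0.256 ± 0.081 and 0.187 ± 0.043, and its groups overlapped. These ratios use exon lengths of a later annotation than the counting, so their size is approximate, while the contrast between groups does not depend on length. C8a and C8b lie on chromosome 4 with converging directions and 11.1 kb between them (C8a at 104815679 to 104876398 and C8b at 104766317 to 104804548, mm10).

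Of the complement regulators, 1 of 5 fell, the same share as the 20.0% of all tested genes, and 0 rose, with a median log2 fold change of −0.35. Vtn, vitronectin, which blocks insertion of the terminal complex, stood at 1874, 2790, 2597, 2387 and 2332 CPM in fed and at 1603, 1798, 1750, 1345 and 2073 CPM in starved libraries. The groups overlapped through fed library 1 and starved library 5. Vtn fell by 0.48 ± 0.15 on the log2 scale (adjusted p = 0.0241, edgeR), a call that was lost without starved libraries 2 and 4 (−0.39, adjusted p = 0.0511) and without fed library 2 or 3 or starved library 1 or 4 alone. Log2 fold changes were −0.44 for C4bp, which inactivates C4b (adjusted p = 0.0531, edgeR), −0.35 for Cfi, the protease that degrades C3b and C4b (0.063), −0.15 for Serping1, the inhibitor of C1 (0.374), and −0.04 for Clu, clusterin (0.858). C4bp was called lower with library totals alone, with DESeq2's Wald test, with limma-voom and without fed library 1 or starved library 1 or 5, and Cfi with library totals alone and without fed library 1 or starved library 5. The sign of Clu turned without fed library 2 or starved library 1, 3 or 4.

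**Figure D2:**
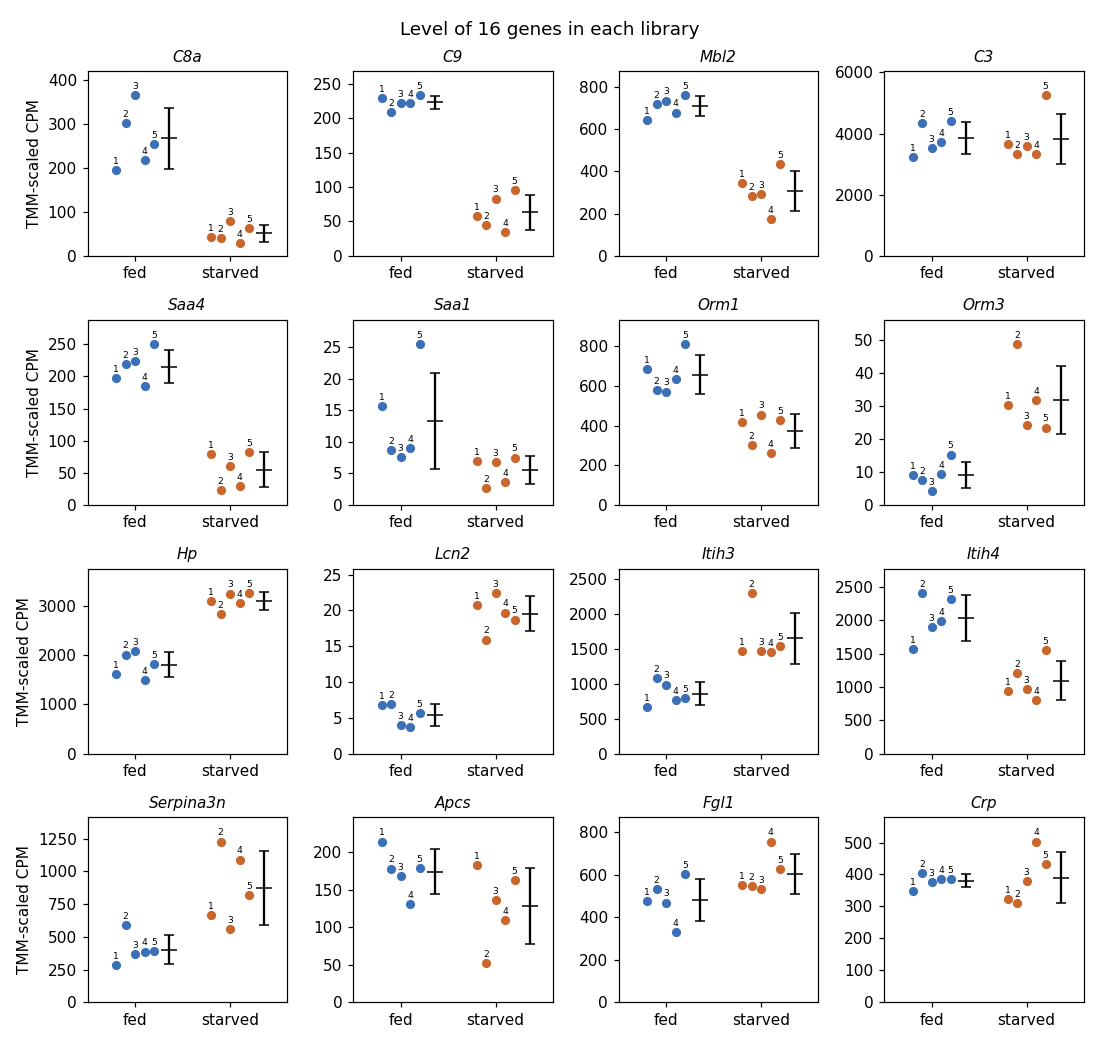
TMM-scaled CPM (y axes, from 0) of 16 genes in each fed and starved library, with the library number above each point and the mean ± SD of 5 libraries beside it. C8a, C9, Mbl2, Saa4, Orm1 and Itih4 sit lower in all starved libraries and Orm3, Hp, Lcn2 and Itih3 higher, while C3, Crp, Apcs and Fgl1 overlap between the groups.

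All 4 serum amyloid A genes fell, where 20.0% of all tested genes did. Saa4 encodes the constitutive form carried on high density lipoprotein and took 84.0% to 92.2% of the reads of the 4 genes in fed and 79.0% to 84.7% in starved libraries. It stood at 198, 219, 223, 186 and 251 CPM in fed and at 79.6, 22.8, 59.6, 28.7 and 82.5 CPM in starved libraries. Starved libraries 2 and 4 were the lowest, the groups did not overlap, and Saa4 fell 3.94-fold (log2 fold change −1.98 ± 0.33 SE, adjusted p = 0.00087, edgeR). The log2 fold change of Saa4 was −1.53 without those 2 libraries. Saa1 and Saa2, the major inflammation-induced forms, were low in both groups.

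Saa1 had 15.6, 8.72, 7.54, 8.92 and 25.5 CPM in fed and 6.93, 2.57, 6.79, 3.61 and 7.48 CPM in starved libraries. The highest starved library lay just below the lowest fed library, and fed libraries 5 and 1 were the high ones. Saa1 fell by 1.28 ± 0.38 on the log2 scale (−1.28, adjusted p = 0.0213, edgeR), but it was not called without starved libraries 2 and 4 (−0.89, adjusted p = 0.0669), nor when starved library 4 or fed library 5 alone was left out. Saa2 had 10.6, 7.85, 7.32, 8.71 and 17.9 CPM in fed and 4.12, 1.39, 5.07, 1.95 and 5.16 CPM in starved libraries, with fed library 5 again the highest. It fell by 1.57 ± 0.37 on the log2 scale (−1.57, adjusted p = 0.00631, edgeR). Saa3, which macrophages and adipocytes make as well, had 6.08, 3.98, 4.12, 4.06 and 4.39 CPM in fed and 3.77, 1.98, 4.03, 1.81 and 2.26 CPM in starved libraries. Fed library 1 stood above the other fed libraries, the groups overlapped, and Saa3 fell by 0.70 ± 0.25 on the log2 scale (adjusted p = 0.0396, edgeR). Leaving out any single fed library, starved library 2, 4 or 5, or starved libraries 2 and 4 together (−0.39) ended the call of Saa3.

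The 4 serum amyloid A genes form a cluster on chromosome 7, with gaps of 7.89 to 12.3 kb between neighbours. The 250 bases before the start sites of Saa1 (chr7:46742981-46743230, minus strand) and Saa2 (chr7:46751583-46751832, plus strand) of RefSeq on GRCm38.p6 are shown because the genes moved together. They are identical in 94.8% of aligned positions and hold the same match to TTGCNNAA, the core of sites that C/EBP factors bind, which is in capitals.
Saa1: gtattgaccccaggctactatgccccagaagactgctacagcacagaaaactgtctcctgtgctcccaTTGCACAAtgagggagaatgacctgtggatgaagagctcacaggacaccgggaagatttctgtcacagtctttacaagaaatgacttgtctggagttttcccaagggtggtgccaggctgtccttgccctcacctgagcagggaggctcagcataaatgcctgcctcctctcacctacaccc
Saa2: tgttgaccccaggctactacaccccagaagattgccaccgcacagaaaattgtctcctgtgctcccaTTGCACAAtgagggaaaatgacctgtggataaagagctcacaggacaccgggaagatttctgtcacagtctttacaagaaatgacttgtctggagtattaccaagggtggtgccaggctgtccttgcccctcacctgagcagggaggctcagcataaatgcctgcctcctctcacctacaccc
The longest coding transcripts of both genes are identical in 87.3% of positions, but only 14.8% of the 50-base stretches of Saa1 and 9.12% of those of Saa2 occur in another gene, so most positions separate them.

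The 3 orosomucoid genes, which encode α1-acid glycoproteins that bind drugs and lipids in plasma, did not move together. Orm1, the most abundant, stood at 686, 580, 571, 633 and 813 CPM in fed and at 417, 300, 455, 262 and 426 CPM in starved libraries, without overlap. Orm1 fell by 0.82 ± 0.17 on the log2 scale (adjusted p = 0.00347, edgeR). Orm2 had 12.5, 11.3, 11.2, 12.6 and 23.8 CPM in fed and 7.12, 5.56, 7.57, 3.79 and 6.32 CPM in starved libraries. Fed library 5 stood far above the others, every starved library lay below the fed range, and Orm2 fell by 1.23 ± 0.25 on the log2 scale (−1.23, adjusted p = 0.00277, edgeR).

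Orm3, in contrast, had 8.96, 7.39, 4.12, 9.36 and 15.3 CPM in fed and 30.4, 49.0, 24.1, 31.8 and 23.5 CPM in starved libraries. Every starved library lay above every fed library, and Orm3 rose 3.52-fold (log2 fold change 1.82 ± 0.31 SE, adjusted p = 0.00105, edgeR). Its share of the reads of the 3 genes was 0.702% to 1.79% in fed and 4.95% to 13.8% in starved libraries. Of the 50-base stretches of the transcripts, 20.4% in Orm1, 22.7% in Orm2 and 3.59% in Orm3 occur in another gene, so Orm3 is the best separated of the 3. The genes lie on chromosome 4 in the same direction, Orm1 at 63344560 to 63348163, Orm3 at 63356162 to 63359511 and Orm2 at 63362449 to 63365878, and Orm2 and Orm3 are 2.94 kb apart. The 250 bases before the start sites of Orm3 (chr4:63355908-63356157) and Orm2 (chr4:63362199-63362448, both plus strand, RefSeq on GRCm38.p6) are shown because these neighbours moved in opposite directions. They are identical in 85.5% of aligned positions, and both hold a match to TTGCNNAA, in capitals, which in Orm2 is the palindrome TTGCGCAA.
Orm3: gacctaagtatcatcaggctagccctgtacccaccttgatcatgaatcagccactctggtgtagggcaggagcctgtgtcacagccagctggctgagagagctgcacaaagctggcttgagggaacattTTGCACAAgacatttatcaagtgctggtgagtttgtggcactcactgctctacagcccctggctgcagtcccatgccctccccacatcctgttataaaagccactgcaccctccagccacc
Orm2: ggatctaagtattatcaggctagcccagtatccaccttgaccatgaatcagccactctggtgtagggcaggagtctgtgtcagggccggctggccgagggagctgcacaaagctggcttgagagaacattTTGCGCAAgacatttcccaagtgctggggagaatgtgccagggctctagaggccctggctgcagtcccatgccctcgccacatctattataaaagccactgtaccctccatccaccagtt
The promoter table used here has no row for Orm1.

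Among the carriers that clear free haemoglobin and haem, Hp rose and Hpx was not called. Hp, haptoglobin, which binds haemoglobin released from red cells, stood at 1607, 2006, 2077, 1482 and 1808 CPM in fed and at 3098, 2820, 3243, 3058 and 3262 CPM in starved libraries. All starved libraries, 2 and 4 included, lay well above the fed range, and Hp rose 1.72-fold (log2 fold change 0.79 ± 0.13 SE, adjusted p = 0.000842, edgeR). Hpx, hemopexin, which binds haem, had the highest level per kilobase of exon of the 39 genes in both groups. It stood at 4281, 4641, 4630, 3927 and 5161 CPM in fed and at 3755, 4590, 4454, 3504 and 3989 CPM in starved libraries, and the groups overlapped (log2 fold change −0.16 ± 0.13, adjusted p = 0.357, edgeR).

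Neither pentraxin was called. Crp, C-reactive protein, which is only a minor acute phase protein in mice, stood at 349, 405, 375, 386 and 386 CPM in fed and at 322, 312, 379, 503 and 434 CPM in starved libraries (log2 fold change 0.04 ± 0.14, and −0.11 with library totals alone). The starved libraries lay on both sides of a narrow fed range. Apcs, serum amyloid P, the major pentraxin of the acute phase in mice, had a mean of 174 ± 29.8 CPM in the fed group against 129 ± 50.6 CPM after starvation (adjusted p = 0.217, edgeR). Starved library 2, at 52.8 CPM, was the lowest of all 10.

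Of the inhibitor genes, 3 of 4 rose (75%, against 18.6% of all tested genes) and 1 fell (25%, against 20.0%). Serpina3n, a serine protease inhibitor induced strongly in inflammation, stood at 282, 588, 367, 388 and 391 CPM in fed and at 664, 1229, 558, 1091 and 820 CPM in starved libraries. Only starved library 3 lay below fed library 2, and Serpina3n rose 2.16-fold (log2 fold change 1.11 ± 0.24 SE, adjusted p = 0.00431, edgeR). Without starved libraries 2 and 4, the highest for this gene, its log2 fold change was 0.77. Serpina3m, a neighbour 12.5 kb away on chromosome 12, rose from 615 ± 73.9 to 1099 ± 265 CPM (SD, n = 5; 0.84 ± 0.17), and 19.1% of its 50-base stretches occur in other genes, mostly Serpina3k.

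Itih3 and Itih4 encode heavy chains of the inter-α-trypsin inhibitor family, of which Itih3 binds hyaluronan in the extracellular matrix. Itih3 stood at 670, 1076, 986, 759 and 797 CPM in fed and at 1468, 2300, 1464, 1455 and 1540 CPM in starved libraries, with starved library 2 far above the others. The groups did not overlap, and Itih3 rose 1.92-fold (log2 fold change 0.94 ± 0.18 SE, adjusted p = 0.00192, edgeR). Itih4 stood at 1568, 2415, 1892, 1984 and 2312 CPM in fed and at 942, 1202, 967, 803 and 1553 CPM in starved libraries, where starved library 5 nearly reached fed library 1. It fell by 0.90 ± 0.19 on the log2 scale (−0.90, adjusted p = 0.00374, edgeR). The genes lie 6.22 kb apart on chromosome 14 with converging directions (Itih4 at 30886476 to 30902353, plus strand, and Itih3 at 30908572 to 30923760, minus strand). Per kilobase of exon, Itih3 was at 0.430 ± 0.068 of the level of Itih4 in fed and at 1.58 ± 0.364 of it in starved liver, with every starved library above every fed library. A group of 3 neighbouring orosomucoid genes and a pair of neighbouring inhibitor genes thus each held members called in both directions, while neighbours C2 and Cfb, C8a and C8b, Serpina3n and Serpina3m and the serum amyloid A cluster each moved in 1 direction. Among these, C2, Saa1 and Saa3 lost their call in some alternatives. Crp and Apcs, 60.9 kb apart on chromosome 1, were both not called.

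**Figure D3:**
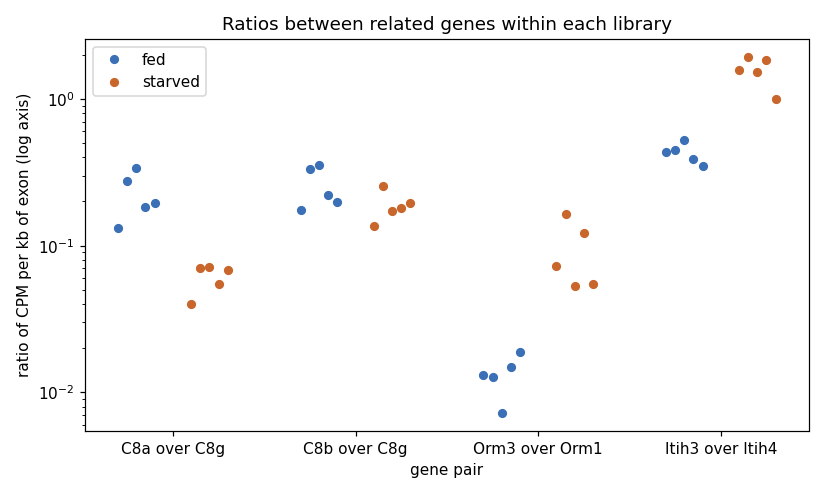
Ratio of CPM per kilobase of exon (y axis, log scale) between 2 related genes in each of 5 fed and 5 starved libraries, chosen after their values were seen. The ratio of C8a to C8g falls from a mean of 0.225 to 0.061 and that of Itih3 to Itih4 climbs from 0.430 to 1.58 without overlap, while C8b to C8g overlaps.

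Lcn2, lipocalin 2, which binds bacterial siderophores and is a sensitive inflammation marker of liver, had the strongest rise of the 39 genes. It had 6.74, 6.93, 3.97, 3.75 and 5.60 CPM in fed and 20.7, 15.9, 22.5, 19.7 and 18.7 CPM in starved libraries. The starved libraries were close to each other and all above the fed range, and Lcn2 rose 3.61-fold (log2 fold change 1.85 ± 0.19 SE, adjusted p = 5.86e-05, edgeR). Starved libraries 2 and 4 were not the high ones, and without them the log2 fold change was 1.95. Fgl1, a fibrinogen-like protein secreted by hepatocytes, stood at 475, 533, 470, 333 and 602 CPM in fed and at 551, 547, 534, 757 and 628 CPM in starved libraries. The groups overlapped and Fgl1 was not called (0.32 ± 0.16, adjusted p = 0.137, edgeR). The 250 bases before the RefSeq start site of Lcn2 (chr2:32387740-32387989, minus strand, GRCm38.p6) are shown beside those of the serum amyloid A genes because both hold a match to TTGCNNAA, in capitals, while Lcn2 rose and they fell.
Lcn2: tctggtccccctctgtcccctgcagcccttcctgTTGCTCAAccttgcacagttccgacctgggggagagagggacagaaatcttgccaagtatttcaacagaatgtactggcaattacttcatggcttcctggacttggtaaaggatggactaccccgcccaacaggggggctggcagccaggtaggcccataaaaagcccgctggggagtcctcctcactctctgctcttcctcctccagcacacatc

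Promoters of 28 of the 39 genes were found in the RefSeq table, as 29 windows of 250 bases before to 50 after the start site. TTGCNNAA occurred on either strand in 11 of 29 windows (37.9%), against 10.8% of all 32851 windows of that length. These windows are not independent, because they include those of related neighbours, namely Saa1, Saa2, Saa3 and Saa4, and Orm2 and Orm3. The promoters of Saa1 and Saa2 are identical in 94.8% of aligned positions, and those of Orm2 and Orm3 in 85.5%. The stricter form TTGCGCAA, which TTGCNNAA contains, was found in 1 window, that of Orm2, against 0.183% of all windows. TTCNNNGAA, the core bound by STAT factors, occurred in 6 windows (20.7%, against 8.30%). A relaxed form of the NF-κB consensus occurred in 1 window, that of Serpina3n (3.45%, against 1.63%), and its strict form, which the relaxed form contains, and the HNF1 palindrome occurred in 0 (against 0.155% and 0.00913%). Matches to TTGCNNAA did not follow 1 direction of change, since 2 of 4 risen, 7 of 15 fallen and 2 of 9 uncalled genes with a window held one. TTCNNNGAA was found in 0 of the 4 risen, 4 of the 15 fallen and 2 of the 9 uncalled genes.

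**Figure D4:**
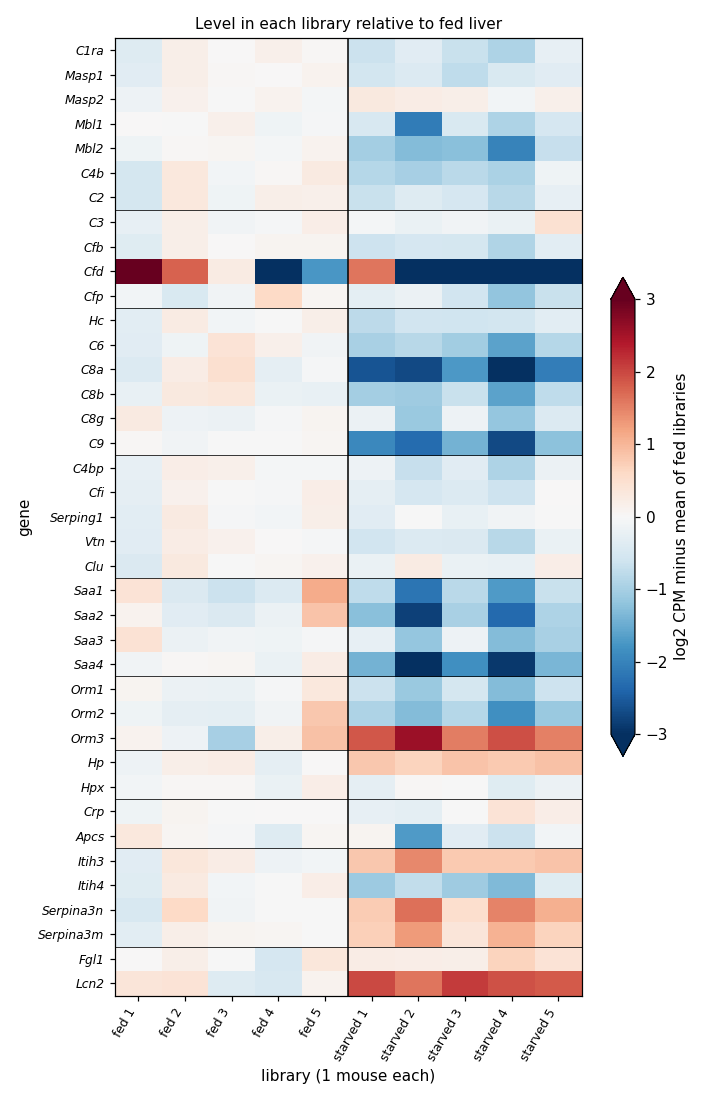
Log2 CPM of each of the 39 genes (rows, grouped by role) in each library (columns), minus the mean of the 5 fed libraries; the colour scale ends at −3 and 3. Starved library 4 is the lowest starved library for 13 of the 20 fallen genes, a count not made over all tested genes. Cfd is high in fed libraries 1 and 2 and in starved library 1.

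Starved mice differed among themselves more than fed mice in most of these genes. The median SD of log2 CPM over the 39 genes was 0.226 among fed and 0.346 among starved libraries, and 0.198 among starved libraries without 2 and 4. Over all tested genes the same values were 0.171, 0.340 and 0.170. Among the 20 fallen genes, the lowest starved library was number 4 in 13 and number 2 in 5, and among the 6 risen genes number 2 was the highest in 4. These counts were not made over all tested genes, on which libraries 2 and 4 also stood apart from the other starved libraries. Among fed mice, library 5 had the highest levels of Saa1, Saa2, Saa4, Orm1, Orm2 and Orm3 (25.5, 17.9, 251, 813, 23.8 and 15.3 CPM). It was also the highest for Hpx and Fgl1, but not for the rest of the acute phase genes. Fed library 1 was the highest for Saa3 and Apcs, and fed library 3 for Hp. Fed library 2 was the highest for Lcn2, Crp, Itih3, Itih4, Serpina3n and Serpina3m.

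Complement genes outside the 39 were also mostly lower or not called, with 12 of 25 tested genes fallen (48.0%, against 20.0% of all tested genes), 2 risen (8%, against 18.6%) and a median log2 fold change of −0.41. Cd59b, a membrane inhibitor of the terminal complex (−1.87 ± 0.41), C3ar1, the receptor of the C3a peptide (−0.82 ± 0.28, and not called without starved libraries 2 and 4, at −0.50), and C1s, the partner protease of C1r (−0.80 ± 0.19), were the genes that fell the most. Cd59b was low, at 1.84 to 3.37 CPM in fed and 0.16 to 1.32 CPM in starved libraries (−1.28 without starved libraries 2 and 4). Its more abundant paralog Cd59a was not called (67.9 ± 9.98 and 61.2 ± 18.0 CPM, log2 fold change −0.15). Cd93, an endothelial and myeloid surface protein related to C1q receptors (1.35 ± 0.26), and C1qbp, a mainly mitochondrial protein that binds C1q (0.63 ± 0.10), rose. The value of Cd93 was 0.93 without starved libraries 2 and 4. Without starved library 4, 7 of the 25 genes were called lower, where 4145 of all genes were called in either direction. Beside them, markers of Kupffer cells and macrophages, which make C1q and properdin, were lower. Of 13 tested markers, 11 fell (84.6%, against 20.0% of all tested genes) and 0 rose. Their summed level was 585 to 961 CPM in fed and 270 to 510 CPM in starved libraries, none of them was at 0, and the list shares C1qa, C1qb, C1qc and Vsig4 with the complement list. The part of these cells in the values of Cfp, Saa3 and the C1q genes was not tested.

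The list of other positive acute phase genes was drawn broadly, and not all of its members encode plasma proteins that increase in inflammation in mice. Of its 26 tested genes, 5 rose (19.2%, against 18.6% of all tested genes) and 9 fell (34.6%, against 20.0%), with a median log2 fold change of 0.02. Cd14, a coreceptor of bacterial lipopolysaccharide, rose by 3.42 ± 0.81, with 68.2 and 29.7 CPM in starved libraries 2 and 4 and 3.42 to 5.02 CPM in the other 3, and its log2 fold change without those 2 libraries was 1.10. Pros1, protein S, which binds C4bp, rose by 1.07 ± 0.31 (0.36 without them), and Lbp, the lipopolysaccharide binding protein, rose by 0.98 ± 0.16 on the log2 scale. Hamp2, a hepcidin paralog (−2.17 ± 0.52), Mug2, a murinoglobulin protease inhibitor (−2.07 ± 0.27), and Serpina1e, an α1-antitrypsin copy (−1.98 ± 0.56), fell. The fibrinogen genes Fga, Fgb and Fgg were not called (0.09, 0.17 and 0.12).

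Of negative acute phase genes, whose proteins decrease in inflammation, 2 of 14 rose (14.3%, against 18.6% of all tested genes) and 5 fell (35.7%, against 20.0%), with a median of −0.17. Rbp4, the retinol carrier (1.26 ± 0.12), and Apoa1, the main protein of high density lipoprotein (0.99 ± 0.20), rose. Serpina6, the corticosteroid carrier (−4.11 ± 0.35), Lect2, a leukocyte chemotaxin secreted by liver (−1.61 ± 0.34), and Ttr, transthyretin (−0.88 ± 0.22), fell. These values were −3.74, −1.14 and −0.60 without starved libraries 2 and 4.

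Among 26 genes of acute phase signalling and transcription, 7 rose (26.9%) and 6 fell (23.1%), near the 18.6% and 20.0% of all tested genes, with a median of 0.05. Cebpd, the C/EBP factor induced by interleukin-6, stood at 2.002, 2.58, 3.72, 5.06 and 4.95 CPM in fed and at 11.2, 34.3, 13.9, 29.4 and 19.4 CPM in starved libraries. No fed library reached a starved level, and Cebpd rose by 2.56 ± 0.35. Il1r1, the interleukin-1 receptor (2.22 ± 0.52), and Il6ra, the interleukin-6 receptor (1.12 ± 0.24), rose, and for both the highest values were in starved libraries 2 and 4 (165 and 76.9 CPM for Il1r1, against 24.7 to 26.7 CPM in the other 3). Without these 2 libraries the log2 fold changes were 0.94 for Il1r1, 0.72 for Il6ra and 2.03 for Cebpd. Lifr, the receptor of leukaemia inhibitory factor (−1.44 ± 0.20), Onecut1, a hepatocyte transcription factor (−1.29 ± 0.39), and Tyk2, a kinase of cytokine receptors (−0.88 ± 0.14), fell. Onecut1 stood at 21.2 CPM in fed library 4, at 6.78 to 9.25 CPM in the other fed and at 2.10 to 5.99 CPM in starved libraries. Stat3 and its feedback inhibitor Socs3 were not called (0.35 ± 0.20 and 0.32 ± 0.33, adjusted p = 0.188 and 0.454, edgeR). With library totals alone, and without fed library 3 or 4, 4 of the 26 genes were called higher. In these settings 4980, 4159 and 3981 of all genes were called in either direction. Neutrophil markers, given because neutrophils carry Lcn2, had summed levels of 4.84 to 7.73 CPM in fed and 5.85 to 29.0 CPM in starved libraries. Of 6 tested markers, 3 rose (50%, against 18.6% of all tested genes) and 0 fell. Starved library 4 had the highest sum and starved library 5 the lowest, the granule genes Mpo, Elane, Ngp, Camp and Ltf were at or near 0 in both groups, and the part of these cells in the values of Lcn2 was not tested.

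**Figure D5:**
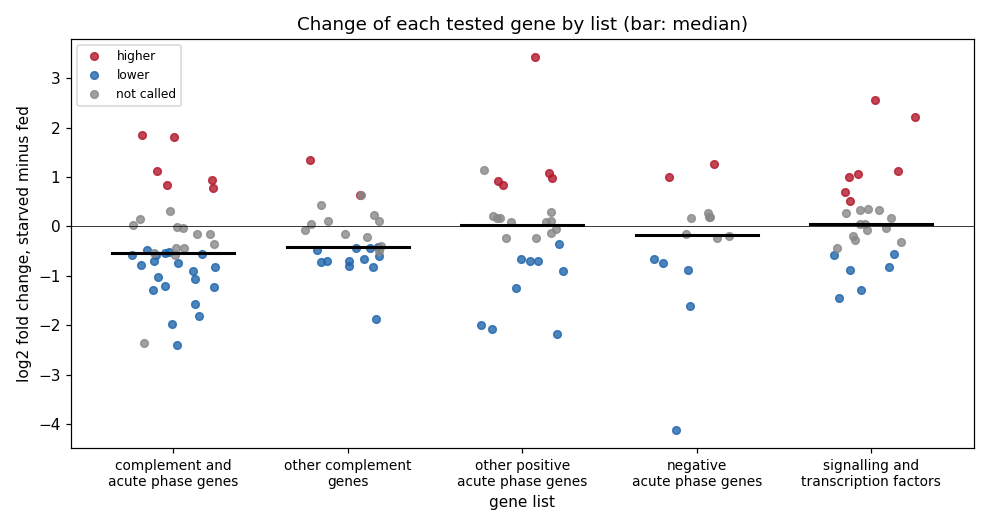
Log2 fold change (starved minus fed, y axis) of each tested gene in 5 lists, with bars at the medians and colours for the call. The medians are −0.54 for the 39 genes, −0.41 for other complement genes, 0.02 and −0.17 for other positive and for negative acute phase genes, and 0.05 for signalling and transcription factors.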

How the data were processed

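Raw read counts per gene symbol were deposited, 1 file per library; per the submitters' processing notes, reads were handled with CASAVA 1.8.2, TopHat2 2.0.0, Bowtie2 2.0.0 and HTSeq on mm10, and edgeR 3.6.4 was also named. Which annotation and strand setting were used is not given in these sources. Unassigned tallies stayed out of library sizes. Reads aligned to several places (38.6% to 48.4% of all) and reads in no gene (16.0% to 24.7%) were not counted for any gene.

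Counts were analysed with R 4.3.3 and edgeR 4.0.16: filterByExpr, TMM, quasi-likelihood test, adjusted p under 0.05. The fit was tested on simulated data. Alternatives were other scalings, DESeq2 1.42.0, limma-voom (limma 3.58.1), other filters, a replicate block and leaving out each library, and leaving out starved libraries 2 and 4 was added after seeing the data. The genes and lists were chosen with earlier results of these data known. Values in every library are given for genes called with at least 2-fold change and 1 CPM, for the most abundant gene of each role and for genes with a library far from its group, with Hp and Cfd added after their values were seen. From each further list, up to 3 genes per direction with the largest called change were named. The fibrinogen genes, Stat3, Socs3, Adipoq, Retn, Hamp, Cd59a, Serpina1a, Serpina1b, Serpina1c and Serpina1d were added after their values were seen. Coordinates and exon lengths are from GENCODE M21 (GRCm38, which is mm10).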

Additional observations from a re-analysis of the deposited data

Results flagged for a closer look

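In 80 groups of 5 libraries examined, 7 held a library whose gap to the nearest other exceeded the limit of Dixon's test on log2 CPM, and chance flags about 1 in 20 groups. Starved library 5 stood above the other starved libraries for C3, at 5263 CPM against 3321 to 3665, and for C4b, at 474 CPM against 259 to 297. Starved library 4 was low for C6, at 9.00 CPM against 13.3 to 15.2. Starved library 2 was low for Mbl1, at 49.2 CPM against 111 to 153, and high for Itih3, at 2300.0 CPM against 1455 to 1540. Fed library 1 was high for Saa3, at 6.08 CPM against 3.98 to 4.39, and fed library 5 for Orm2, at 23.8 CPM against 11.2 to 12.6.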

How the results depend on the processing

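Of the 26 called genes, 21 kept their direction and call in all 18 alternatives run per gene, and C2, Mbl1, Vtn, Saa1 and Saa3 lost the call in at least 1. The number of genes higher was 6 in every alternative. The number lower ranged from 15 (without starved library 4) to 23 (without starved library 1) when 1 library was left out. In these 2 settings 4145 and 4969 of all genes were called in either direction. The number lower was 20 to 24 under other scalings, filters and tests, where 4578 to 5524 of all genes were called. With 1 library left out, calls over all genes ranged from 3981 (without fed library 4) to 5613 (without starved library 2). At an adjusted p under 0.01, 13 of the 39 genes were lower, 2798 of all genes were called in place of 4934, and 6 other complement genes were lower. Among other complement genes, leaving out 1 library gave 7 (without starved library 4) to 11 (without starved library 1) lower. Among signalling genes, 4 were higher with library totals alone and at an adjusted p under 0.01, and 4 to 7 when 1 library was left out. Without Alb in the denominator the 39 genes took 2.98% of gene reads in fed and 2.48% in starved liver, which follows from the smaller denominator. Signs turned only for uncalled genes near 0. For C3 the log2 fold change was 0.0169 with DESeq2 size factors and 0.0169 with DESeq2's Wald test, 0.132 without starved libraries 2 and 4, and −0.145 to 0.0614 when 1 library was left out. With 1 library left out, it was −0.137 to 0.0329 for Clu and −0.0499 to 0.117 for Crp. With library totals alone it was −0.00397 for Masp2 and −0.112 for Crp. The cause of these changes was not tested. Both groups share replicate numbers, and the labels speak of pairs of mice without saying what paired them. Deviations of same-numbered libraries from their group means correlated at −0.0362 to 0.185 over 5 pairs. Of these libraries, 1 fed and 2 starved correlated best with their own number. The highest value was that of fed library 1 with starved library 1, and 5 correlations cannot show that pairing is absent. Whether the replicate number marks the pair is not known here, so this check covers same-numbered libraries only. The main test did not pair libraries. A replicate block gave 6 genes higher and 22 lower, with 4410 of all genes called in either direction. Depth limits Cfd most, with 0 to 447 reads per library.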
